A study of Mus musculus with 62 samples.

Results

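Human chromosome 21 has its mouse counterparts on 3 chromosomes, and the Ts65Dn mouse, a model of Down syndrome, carries an extra copy of only part of them. The genes described here are 46 orthologs of human chromosome 21 genes that lie outside the extra segment and so stay at 2 copies in Ts65Dn. They were chosen by position, with no expression value used: 25 lie on chromosome 10, 12 on chromosome 17 distal to its triplicated part, and 9 on chromosome 16 proximal to Mrpl39, the first triplicated gene there. All 46 were found among the 27179 genes of the count tables, and all coordinates below are of the mm10 (GRCm38) assembly.

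RNA-seq counts were available for 62 libraries in 8 groups. Forebrain of E17.5 embryos of mixed sex was taken from 8 euploid and 7 Ts65Dn animals. Hippocampus of 6-week-old mice was taken from 8 euploid, 7 Ts65Dn and 8 Ts65Dn;Brwd1+/- males and from 8 females of each of these genotypes. Ts65Dn mice carry distal chromosome 16 and centromeric chromosome 17 as an extra chromosome, so the triplication is present in every cell and includes centromeric chromosome 17 genes that have no human chromosome 21 ortholog. Brwd1, a chromatin reader gene within the triplicated segment, was returned to 2 functional copies in the third adult genotype through the repro5 mutant allele of the sire. Animals of all groups shared a mixed background from DBA/2J and B6EiC3Sn/J. Whole tissue was sequenced, so fewer cells of a type and less RNA per cell cannot be told apart.

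A gene at 3 copies is expected to give up to 1.5 times the RNA of a gene at 2 copies, a difference of 0.58 on the log2 scale, whereas the 46 orthologs have no such change in template. They are of interest because people with Down syndrome carry them in 3 copies and Ts65Dn does not. Among them are S100b, a calcium-binding protein of astrocytes, Cbs, the enzyme that commits homocysteine to transsulfuration, the collagen chains Col6a1, Col6a2 and Col18a1, the RNA-editing enzyme Adarb1, the splicing factor U2af1, the centrosomal scaffold Pcnt and the cholesterol transporter Abcg1.

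The libraries held between 14863136 and 137059172 counts, and 8 adult libraries stood out by measures other than the orthologs. In 4 libraries labelled trisomic the triplicated genes were at the euploid level: the male Ts65Dn library B145, the male Ts65Dn;Brwd1+/- libraries T35 and B138 and the female Ts65Dn;Brwd1+/- library B136. In 2 libraries, male Ts65Dn B88 and female euploid B85, Xist and Ddx3y were at the level of the other sex. Over all genes, female euploid B125 and female Ts65Dn;Brwd1+/- B176 differed from their group medians by a median of 0.31 and 0.25 (log2), against 0.04 to 0.20 in the other 60 libraries, and their differences followed exon length with r of -0.64 and -0.69. Brwd1 itself had a median log2 CPM (counts scaled to the adjusted library total) of 6.74 in male euploid, 7.24 in male Ts65Dn and 7.13 in male Ts65Dn;Brwd1+/- libraries, and of 6.96, 7.35 and 7.20 in the corresponding females. The restored groups were therefore between the other genotypes, with a log2 difference from Ts65Dn of -0.25 over both sexes (SE 0.07, adjusted p = 0.523, edgeR quasi-likelihood test). These Brwd1 values include T35, B138 and B136 in the restored groups and B145 in male Ts65Dn, where all triplicated genes were at the euploid level. They therefore do not measure the restored copy number alone, and the part of these libraries in the difference was not tested. Hippocampal neuron markers summed to 1307 to 2048 CPM in every adult library, while the CA1 marker Spink8 and the myelin genes Mobp and Opalin were under 1 CPM in E17.5 forebrain.

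The orthologs spanned more than 3 orders of magnitude in level. On a scale that divides counts by exon length and adjusted library total (RPKM), Prmt2, an arginine methyltransferase, was the most abundant in euploid E17.5 forebrain at 118 ± 10.6 (SD, n = 8), followed by Sumo3, a ubiquitin-like modifier, at 69.5 and Cxadr, an adhesion protein and virus receptor, at 64.0. In adult euploid hippocampus the order was led by Pfkl, the liver-type phosphofructokinase subunit, at 81.9 RPKM, then S100b at 55.6 ± 5.62 (SD, n = 16) and Prmt2 at 40.6 ± 3.79. At the other end, Ftcd, a folate enzyme best known from liver, had between 0 and 18 counts per library and entered no test. Hsf2bp, a partner of heat shock factor 2 with roles in meiosis, was at 0.176 RPKM in forebrain and 0.066 in hippocampus and was testable in every fit except that of the males. Samsn1, an adaptor of blood cells, averaged 0.483 RPKM in forebrain and 0.678 in hippocampus, with 1 euploid library at 1.54. Totals of 20 orthologs in forebrain and 18 in hippocampus exceeded 10 RPKM.

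The ranges of the euploid libraries did not overlap between the tissues for 26 of the 46 orthologs. Of these, 15 were higher at E17.5 and 11 in the adult, and the other 20 overlapped. No such count was made over all genes, so these numbers do not set the orthologs apart from other genes. Cxadr went from 64.0 ± 5.33 to 3.22 ± 0.394 RPKM, Chodl, a lectin-domain membrane protein, from 2.55 to 0.064, U2af1 from 40.5 to 13.3 and Pde9a, a cyclic GMP phosphodiesterase, from 21.9 to 6.51. In the opposite direction, S100b went from 1.99 ± 1.68 to 55.6 RPKM, Icosl, a co-stimulatory ligand, from 0.397 to 5.02, Itgb2, the leukocyte beta2 integrin, from 0.301 to 1.82, Adarb1 from 9.20 to 34.7 and Trpm2, an oxidant-sensitive cation channel, from 1.53 to 5.11. Tissue, age and the sequencing of the 2 tables cannot be told apart here, so these levels stand side by side with no test.

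**Figure D1:**
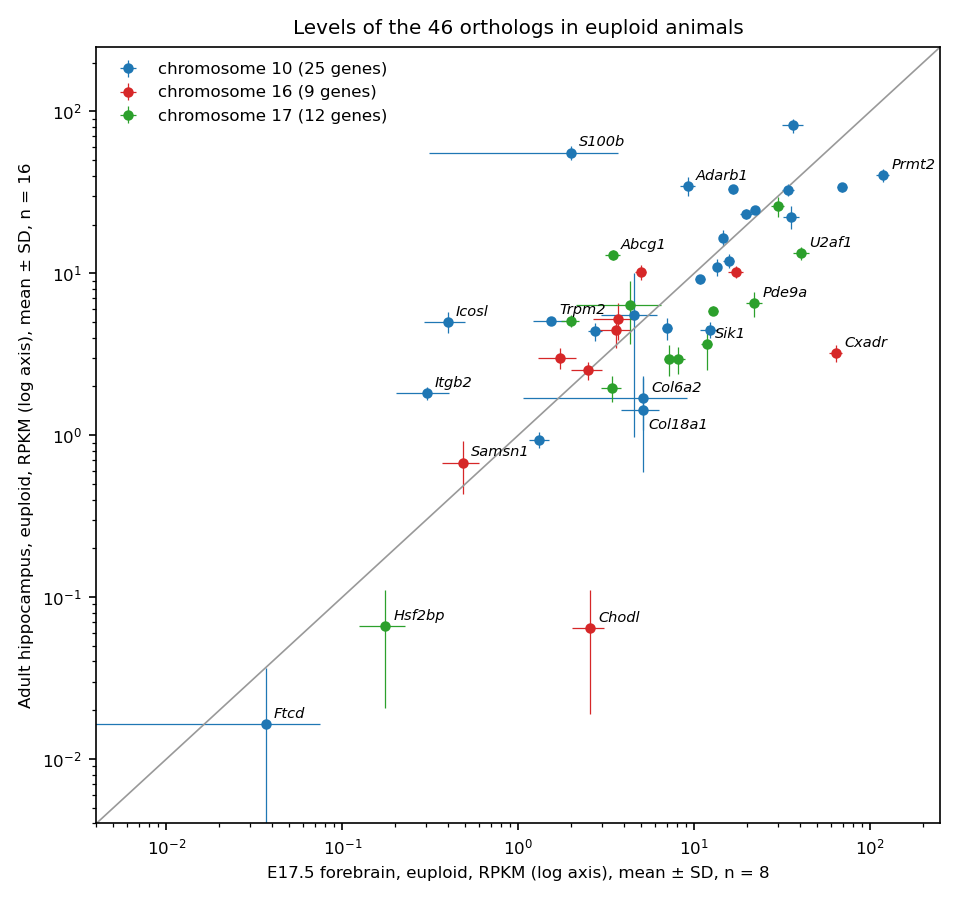
Each point is 1 ortholog, with its mean RPKM in 8 euploid E17.5 forebrain libraries on the x axis and in 16 euploid adult hippocampus libraries on the y axis (log axes, bars are SD, the line marks equal levels). S100b, Icosl, Itgb2 and Adarb1 lie above the line, and Cxadr and Chodl lie farthest below it.

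The first question was whether genes at 2 copies kept their euploid level beside a triplicated segment. Per library, the median log2 ratio to euploid over the orthologs averaged between -0.00 and 0.05 in the 8 groups, whereas over the protein-coding triplicated genes of chromosome 16 it averaged 0.60 in E17.5 Ts65Dn, 0.49 in male and 0.56 in female Ts65Dn, and 0.43 in male and 0.49 in female Ts65Dn;Brwd1+/-, the 4 libraries at the euploid level included. In the fits, the median log2 fold change of the orthologs in Ts65Dn vs. euploid was 0.03 at E17.5, 0.00 in males and -0.01 in females, beside -0.01, 0.00 and -0.02 over all genes tested and 0.56, 0.50 and 0.52 over the triplicated chromosome 16 genes. The 95% interval of the fold change lay wholly below the dosage value of 0.58 for 37 of 45 orthologs at E17.5, 42 of 44 in males and 42 of 45 in females. Over all genes it did so for 13453 of 16395, 14635 of 16851 and 14644 of 17146. With both sexes combined it did so for all 45 orthologs tested, against 10 of 82 triplicated chromosome 16 genes and 15915 of all 17427 genes. The orthologs whose interval still reached 0.58 at E17.5 were Col18a1, Col6a1, Col6a2, Hsf2bp, Icosl, Ncam2, S100b and Samsn1, so their precision did not separate them from a change of that size.

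**Figure D2:**
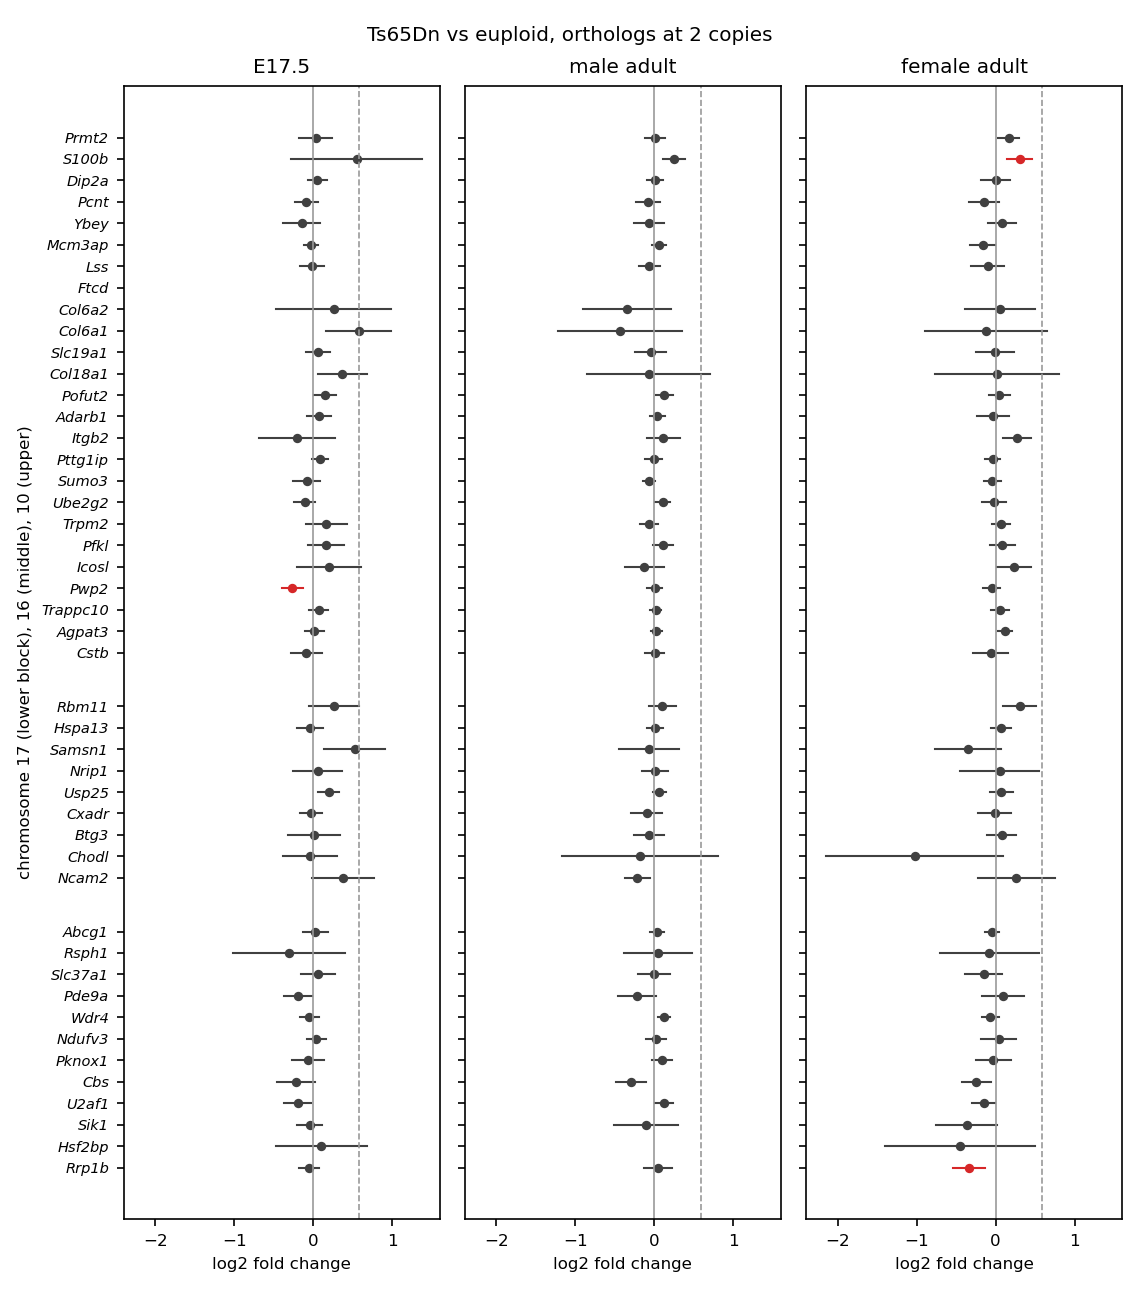
Log2 fold change in Ts65Dn vs. euploid (points, with 95% intervals as lines) of the orthologs in E17.5 forebrain, male and female adult hippocampus, ordered by chromosome and position. The solid line marks 0, the dashed line 0.58 and red an adjusted p under 0.1, which Pwp2 reached at E17.5 and S100b and Rrp1b in females.

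On chromosome 16 the change of level with copy number could be followed along the sequence. The 9 orthologs start 9.13 Mb (Rbm11) to 3.52 Mb (Ncam2) before Mrpl39, whose start at chr16:84718281 opens the triplicated stretch. Ncam2, a neural cell adhesion molecule, had a log2 fold change of 0.37 at E17.5, -0.22 in males and 0.26 in females, none of them called. The female value was 0.13 without euploid B125, the library in which Ncam2 was lowest (3.53 log2 CPM, the next 5.23). Among the first triplicated genes beyond Ncam2, values in the same order were 0.62, 0.46 and 0.65 for Mrpl39, a mitochondrial ribosomal protein. They were 0.79, 0.57 and 0.57 for Jam2, a junctional adhesion molecule, and 0.86, 0.53 and 0.70 for App, the amyloid precursor. Mrpl39, Jam2 and App were each called in all 3 comparisons. Between Jam2 and App lie Atp5j (0.55, 0.54 and 0.57) and Gabpa (0.48, 0.50 and 0.53). None of the 9 orthologs was called in these comparisons, beside 1.35% of all genes at E17.5, 0.795% in males and 3.17% in females. The count called therefore does not set these 9 apart from other genes. Their median log2 fold changes were 0.06 at E17.5, -0.07 in males and 0.07 in females. Cxadr and Btg3 have annotated ends 75 bases apart, and the library kit did not mark strand, so reads at that boundary cannot be assigned with certainty.

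**Figure D3:**
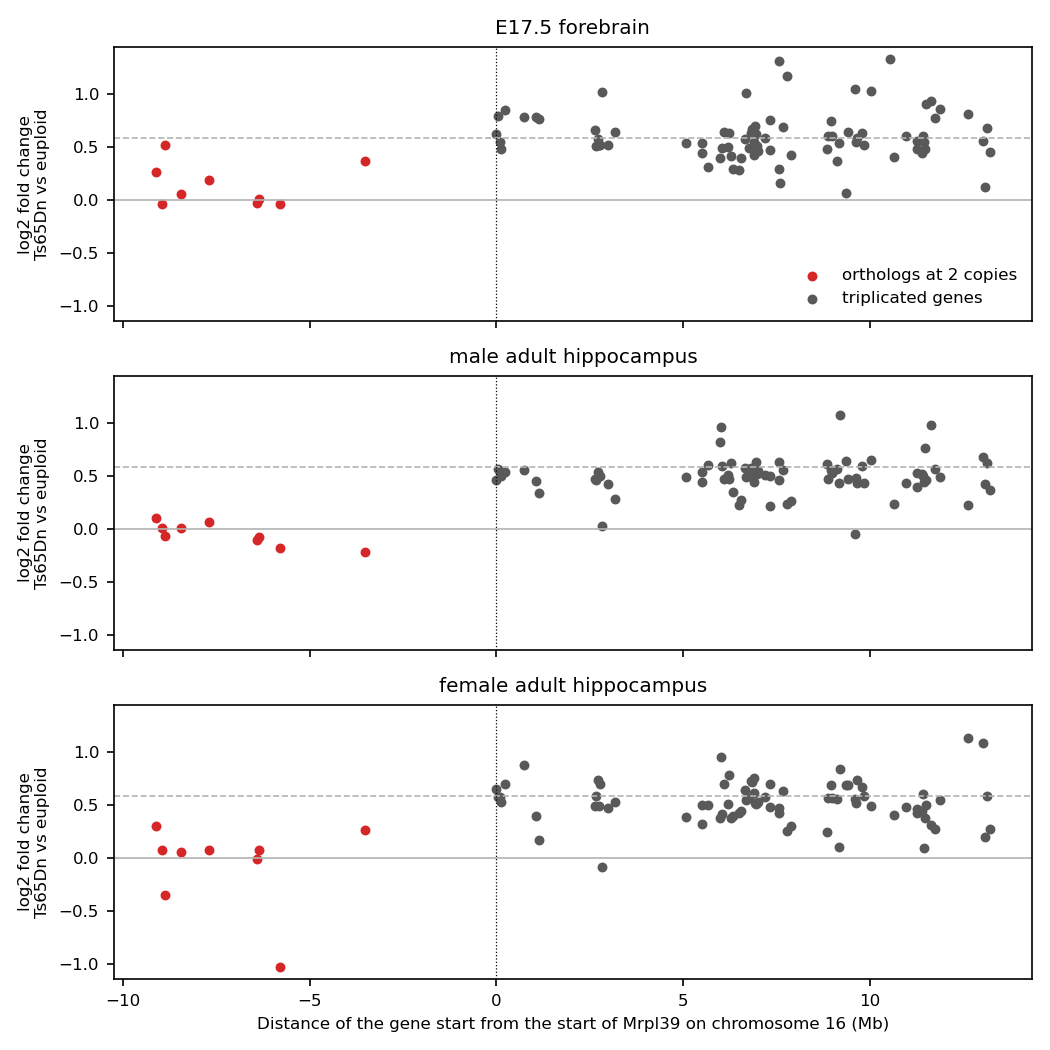
Log2 fold change in Ts65Dn vs. euploid (y axis) against the distance of each gene's start from that of Mrpl39 on chromosome 16 in Mb (x axis), for the 9 orthologs at 2 copies (red) and the triplicated genes (grey), in E17.5 forebrain and male and female hippocampus. Red points scatter around 0 (solid line) left of the border, and grey points around 0.58 (dashed line) right of it.

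In E17.5 forebrain, 1 of the 45 orthologs tested was called (adjusted p under 0.1, edgeR), beside 1.35% of all 16395 genes. It was Pwp2 (Entrez 110816, chr10:78170909-78185171), a component of the small-subunit processome that assembles ribosomes. Its log2 CPM ran from 5.27 to 5.53 in euploid embryos, with a median of 5.36, and from 4.94 to 5.34 in Ts65Dn, with a median of 5.11. All Ts65Dn libraries except TS4 were below the lowest euploid library. The fold was 0.832, a log2 change of -0.26 (SE 0.06, adjusted p = 0.063), and the call was lost without any 1 of 8 libraries (EU4, EU5, EU7, EU8, TS2, TS3, TS5 or TS7, adjusted p 0.101 to 0.144). In the adult Pwp2 had log2 fold changes of 0.00 in males and -0.05 in females, with neither called. A total of 8 orthologs had an unadjusted p under 0.05, 17.8% of those tested, beside 12.1% of all genes.

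Next by p-value at E17.5 were Usp25 and Col6a1, neither of them called. Usp25, a deubiquitinase on chr16:77013684-77116783, ran from 4.43 to 4.74 log2 CPM in euploid and from 4.64 to 4.99 in Ts65Dn libraries. All 7 Ts65Dn libraries exceeded the euploid median and 4 exceeded the euploid maximum, at a log2 fold change of 0.20 (SE 0.06, adjusted p = 0.208). Col6a1, an alpha chain of the microfibril-forming collagen VI, ran from 3.44 to 4.94 in euploid and from 4.32 to 5.16 in Ts65Dn libraries, a log2 fold change of 0.57 (SE 0.20, adjusted p = 0.238). The euploid library EU3 held the top euploid value and lay within the Ts65Dn range.

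At E17.5 the log2 fold change of Col18a1, a basement membrane collagen, was 0.37 and that of Col6a2 0.26, with neither called. Summed over 10 markers of meningeal fibroblasts and mural cells, euploid libraries held 489 to 2070 CPM, with a median of 681 and the maximum in EU3, and Ts65Dn libraries 845 to 1241, with a median of 1045. Of these 10 markers 3 were called higher in Ts65Dn, with a list median of 0.35, and none of the 18 other collagen and basement membrane genes examined was called by edgeR, with 9 at an unadjusted p under 0.05 and a median of 0.28. How far the amount of meninges dissected accounts for the collagen values was not tested. Without EU3 the number of orthologs called at E17.5 was 4 rather than 1, and the share of all genes called 2.76% rather than 1.35%. In the adult the highest Col6a1 was in female euploid B85, at 6.36 log2 CPM with a marker sum of 259 CPM, whereas female euploid B17 was at 3.63 with a sum of 681 CPM. Among male Ts65Dn libraries Col6a1 was lowest in B45 (2.55, marker sum 216 CPM) and highest in B88 (5.04, 893 CPM). In B85 and B88 Xist and Ddx3y were at the level of the other sex. The relation of Col6a1 to the markers over the adult libraries was not tested.

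**Figure D4:**
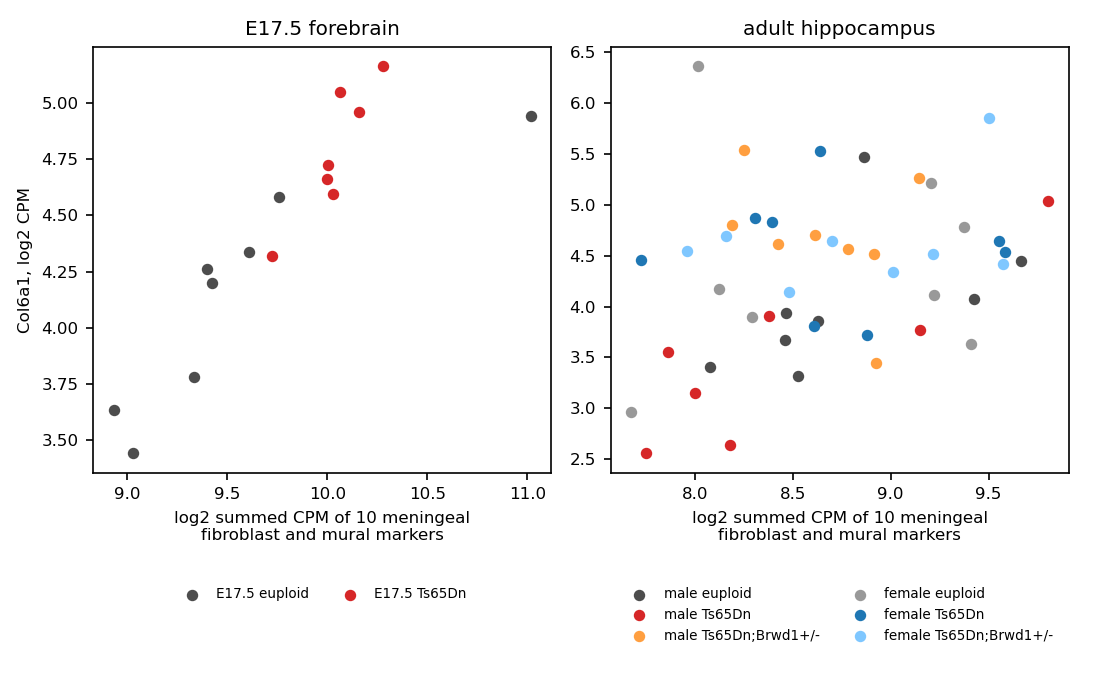
Col6a1 (log2 CPM, y axis) against the log2 of the summed CPM of 10 meningeal fibroblast and mural markers (x axis), with 1 point per library coloured by group. At E17.5 the 7 Ts65Dn libraries lie between 4.32 and 5.16 on the y axis and the marker-rich euploid library EU3 at 4.94, while adult Col6a1 spreads widely in every group.

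In adult males no ortholog was called in Ts65Dn vs. euploid by edgeR, where 0.795% of all genes were, and DESeq2 called 2. An unadjusted p under 0.05 was reached by 7 orthologs (15.9% of those tested), beside 8.91% of all genes. In females 2 of 45 were called, S100b and Rrp1b, beside 3.17% of all genes. With both sexes combined in a fit of all 6 adult groups, 3 of 45 were called beside 3.4%: S100b and Rbm11 were higher and Cbs lower. Each of these shares of orthologs called lies near the share of the genome at large, apart from the 6.67% with both sexes combined, which stands for 3 genes. S100b and Cbs had an unadjusted p under 0.05 in every adult comparison of a trisomic group with euploid, with opposite signs, and their proximal promoters are shown so that the sequence before each gene can be read beside its values. The 250 bases before each transcription start, from the promoter entries of RefSeq on GRCm38.p6 and written 5′ to 3′ on the gene's own strand, are in lower case and carry in capitals the CCAAT box (CCAAT or its reverse complement ATTGG) and the GC box (GGGCGG or CCGCCC).
S100b, chr10:76253586-76253835, plus strand: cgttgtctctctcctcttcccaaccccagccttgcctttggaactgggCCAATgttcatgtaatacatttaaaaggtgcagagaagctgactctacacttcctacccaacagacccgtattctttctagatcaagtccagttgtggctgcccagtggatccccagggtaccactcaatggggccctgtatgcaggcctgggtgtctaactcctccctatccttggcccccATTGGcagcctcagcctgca
Cbs, chr17:31637206-31637455, minus strand: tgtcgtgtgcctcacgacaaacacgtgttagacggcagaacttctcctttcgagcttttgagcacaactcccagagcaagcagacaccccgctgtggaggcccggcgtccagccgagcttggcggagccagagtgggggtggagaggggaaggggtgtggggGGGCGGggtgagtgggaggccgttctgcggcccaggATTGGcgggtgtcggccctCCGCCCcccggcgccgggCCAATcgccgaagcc

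The S100b window is 53.6% G or C and holds 2 CpG sites, 2 CCAAT boxes and no GC box. The start used for the Cbs window lies inside the annotated gene, so its last 28 bases, with the second CCAAT box, are within the Cbs interval given below. The Cbs window is 68% G or C and holds 21 CpG sites, 2 CCAAT boxes and 2 GC boxes, on either strand. Over 32851 promoter windows of the same length, the median number of CpG sites was 6, and 33.8% held a CCAAT box and 32.7% a GC box. Neither window holds TATAAA, found in 12.4% of all, or the cAMP response element TGACGTCA, found in 1.55%. Among the 35 orthologs with a promoter entry, 21 had a GC box, 12 a CCAAT box, 3 TATAAA and none TGACGTCA. These orthologs had 44 windows and were counted per gene, whereas the shares over all promoters are per window, so the 2 are not directly comparable. A match describes the letters of the window and not a site in use.

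S100b (Entrez 20203, chr10:76253836-76261319) was higher in Ts65Dn hippocampus in females and with both sexes combined. Male euploid libraries ran from 6.21 to 6.46 log2 CPM, with a median of 6.37, and male Ts65Dn libraries from 6.28 to 6.92, with a median of 6.57. All male Ts65Dn libraries except B145 exceeded every male euploid library. Female euploid libraries ran from 6.12 to 6.75, with a median of 6.35, and female Ts65Dn libraries from 6.57 to 6.87, with a median of 6.66. The only female euploid library above 6.45 was B125, 1 of the libraries that stood apart over all genes, and all 8 female Ts65Dn libraries exceeded the other 7.

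In numbers, S100b differed by a log2 fold change of 0.25 in males (SE 0.07, adjusted p = 0.117) and 0.30 in females (SE 0.08, adjusted p = 0.0387), and by 0.28 over both sexes, a fold of 1.22 (SE 0.05, adjusted p = 0.000393). The female call was kept without each of 24 libraries in turn and the combined call without each of 31. In males the call appeared when B145 was left out (0.30, adjusted p = 0.00905) or when T35, a library of the third genotype in the same fit, was left out (adjusted p = 0.0763). The difference between the sexes in this effect was 0.06 (SE 0.10, adjusted p = 0.886), with a 95% interval that does not separate them. At E17.5 S100b was low and uneven, with a log2 fold change of 0.55 and an SE of 0.39 (adjusted p = 0.56).

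Cbs (Entrez 12411, chr17:31612623-31637233) was lower in Ts65Dn hippocampus with both sexes combined and in the Ts65Dn;Brwd1+/- hippocampus of each sex. Male euploid libraries ran from 4.92 to 5.20 log2 CPM, and male Ts65Dn libraries from 4.41 to 5.20, with all except B145 below every euploid library. Male Ts65Dn;Brwd1+/- libraries ran from 4.44 to 4.96, with all except T35 below every euploid library. Female euploid libraries had a median of 5.02, female Ts65Dn a median of 4.70 and female Ts65Dn;Brwd1+/- a median of 4.41, and in the last group all except B136 lay below the lowest female euploid value of 4.73.

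The log2 fold change of Cbs in Ts65Dn vs. euploid was -0.29 in males (SE 0.09, adjusted p = 0.218), -0.24 in females (SE 0.09, adjusted p = 0.178) and -0.26 over both sexes, a fold of 0.833 (SE 0.07, adjusted p = 0.0158). In males the call appeared without B145 (-0.39, adjusted p = 0.00607). In Ts65Dn;Brwd1+/- vs. euploid it was -0.38 in males (SE 0.09, adjusted p = 0.058), -0.48 in females (SE 0.09, adjusted p = 0.00755) and -0.43 over both sexes, a fold of 0.743 (SE 0.06, adjusted p = 1.15e-05). The male call was lost without any 1 of 6 libraries (euploid B80 or B84, Ts65Dn;Brwd1+/- B137, B26, B69 or B94, adjusted p up to 0.126), and the female call was kept without each of 24. At E17.5 the value was -0.22 (SE 0.12, adjusted p = 0.457).

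The 4 libraries labelled trisomic with triplicated genes at the euploid level are given separately here. For S100b they held 6.28 (B145), 6.33 (B136), 6.36 (T35) and 6.59 (B138) log2 CPM, and for Cbs 4.77 to 5.20. The other 27 adult libraries with an extra chromosome held 6.52 to 6.92 for S100b, with a median of 6.66, beside a euploid median of 6.35 over 16 libraries. For Cbs the 27 held 4.20 to 5.05, with a median of 4.58, beside a euploid median of 5.02. Without the 4 libraries, 3 orthologs were called in male Ts65Dn vs. euploid, namely Cbs (-0.39), S100b (0.30) and Wdr4 (0.14), beside 1.16% of all genes. In the same fits, in Ts65Dn;Brwd1+/- vs. euploid Cbs was at -0.46 in males and -0.54 in females and S100b at 0.28 and 0.31, all called, beside 1.58% of all genes in males and 1.2% in females.

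**Figure D5:**
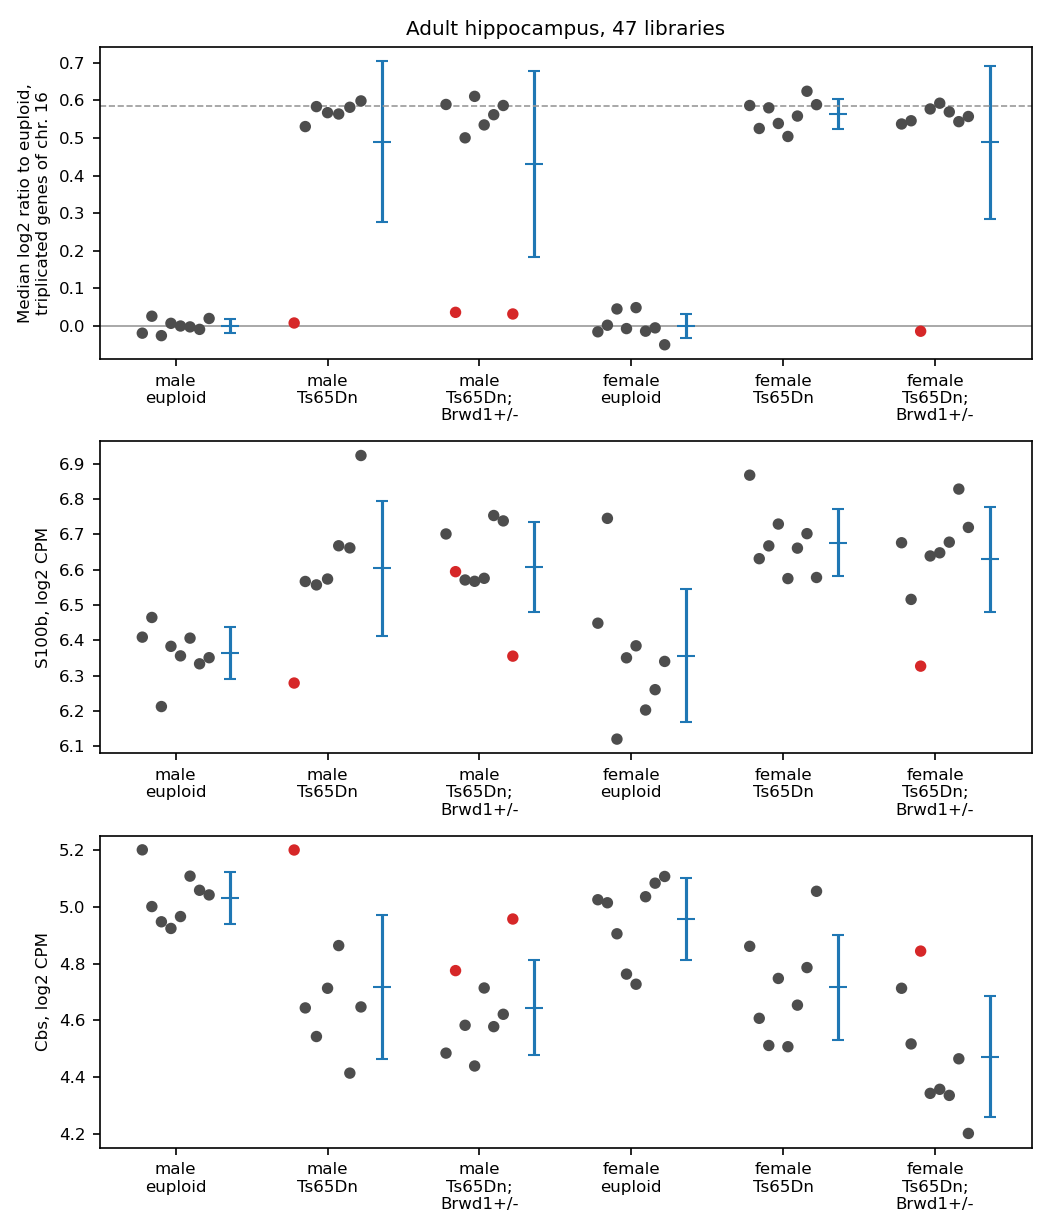
Per adult library, the median log2 ratio to euploid of the triplicated chromosome 16 genes (top) and the log2 CPM of S100b (middle) and Cbs (bottom), by group. Red points are the 4 libraries labelled trisomic with triplicated genes at the euploid level, blue marks are means with SD, and the dashed line is 0.58. The other 27 libraries of trisomic groups lie between 6.52 and 6.92 for S100b, and 3 of the 4 red points between 6.28 and 6.36.

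Astrocytes express S100b and Cbs, and their marker levels are therefore given beside these values. Summed over 10 markers, male euploid libraries held 4982 to 6025 CPM, male Ts65Dn 5125 to 5858 and male Ts65Dn;Brwd1+/- 4861 to 5321. Female euploid libraries held 3905 to 5729, female Ts65Dn 4486 to 5650 and female Ts65Dn;Brwd1+/- 3590 to 5589. None of the 10 markers was called by edgeR in Ts65Dn vs. euploid in either sex, with 6 at an unadjusted p under 0.05 in males and 0 in females and medians of -0.12 and -0.06. In Ts65Dn;Brwd1+/- vs. euploid over both sexes 2 of the 10 were called lower, with a median of -0.11. At E17.5 2 were called higher, with a median of 0.26. Over 10 oligodendrocyte markers the medians in Ts65Dn vs. euploid were 0.14 in males and 0.04 in females, with 0 called by edgeR in either sex. The part of either cell type in the S100b and Cbs values was not tested. Of 11 other S100 genes 7 to 10 could be tested in a given comparison, and none of those was called by edgeR, with 0 to 2 at an unadjusted p under 0.05. Among 18 other genes of one-carbon metabolism and transsulfuration, the pathways on either side of Cbs, 0 were called by edgeR in Ts65Dn vs. euploid in either sex, with 2 in males and 4 in females at an unadjusted p under 0.05. In male Ts65Dn;Brwd1+/- vs. euploid Shmt2, the mitochondrial serine hydroxymethyltransferase, was higher (0.23, SE 0.06, adjusted p = 0.0699), and over both sexes Gldc, the glycine decarboxylase of the astrocytic glycine cleavage system, was lower (-0.22, SE 0.05, adjusted p = 0.0103).

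Rrp1b (chr17:32036162-32062865), a nucleolar protein of ribosomal RNA processing, was the other ortholog called in females. Female euploid libraries ran from 3.52 to 4.38 log2 CPM, with a median of 4.02, and female Ts65Dn libraries from 3.48 to 3.93, with a median of 3.67. All 8 Ts65Dn libraries lay below the euploid median, although the ranges overlapped. The log2 fold change was -0.34 (SE 0.10, adjusted p = 0.0762), and the call was lost without any 1 of 9 of the 24 libraries (euploid B17, B21, B85 or B65, Ts65Dn B103, B134, B135, T139 or T142, adjusted p 0.121 to 0.174). The change was smallest without B85 (-0.27, adjusted p = 0.174, edgeR), a library labelled female in which Xist and Ddx3y were at the male level. In males the log2 fold change of Rrp1b in Ts65Dn vs. euploid was 0.04 (SE 0.09). Itgb2 came next in females without being called, at 0.27 (SE 0.09, adjusted p = 0.12), from 2.23 to 2.67 in euploid and 2.34 to 3.08 in Ts65Dn libraries. The sum of 10 microglia markers ran from 339 to 419 CPM in female euploid and 344 to 476 in female Ts65Dn libraries, with 1 of the 10 called higher, and the part of microglia in the Itgb2 value was not tested.

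Rbm11 (chr16:75592844-75602825), a tissue-restricted splicing regulator, was called only with both sexes combined, at 0.21 (SE 0.06, adjusted p = 0.0821), and the call was lost when any 1 of 16 of 31 libraries was left out (adjusted p 0.105 to 0.151). Its log2 fold change was 0.30 in females (SE 0.10, adjusted p = 0.122) and 0.10 in males (SE 0.08, adjusted p = 0.782). Female euploid libraries ran from 2.53 to 3.13 log2 CPM and female Ts65Dn libraries from 3.03 to 3.43, with 7 of 8 above every euploid library. At 9.13 Mb from the border Rbm11 is the ortholog farthest from the triplicated stretch of chromosome 16, and the triplicated genes themselves were at 0.53 in the same fit.

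No ortholog showed a difference in the effect of the trisomy between the sexes that was called by edgeR, where 0% of all genes were called, and none was called by DESeq2. An unadjusted p under 0.05 was reached by 5 orthologs (11.1% of those tested), beside 11.1% of all genes. The smallest p belonged to U2af1 (chr17:31647081-31659148), which recognises the 3′ splice site. Male euploid libraries ran from 3.67 to 3.91 log2 CPM and male Ts65Dn from 3.82 to 4.01, whereas female euploid libraries ran from 3.86 to 4.20 and female Ts65Dn from 3.65 to 3.97. The log2 fold change was 0.12 in males and -0.15 in females, a difference of -0.27 (SE 0.09, adjusted p = 0.267, edgeR). Rrp1b followed with a difference of -0.37 (SE 0.13, adjusted p = 0.296) and Wdr4, a subunit of a tRNA methyltransferase, with -0.18 (SE 0.06, adjusted p = 0.304). In males Wdr4 ran from 4.49 to 4.66 in euploid and 4.53 to 4.74 in Ts65Dn libraries, at 0.12 (SE 0.04, adjusted p = 0.26). Of 12 other genes of the U2 snRNP and 3′ splice site, 1 was called in females, the splicing factor Srsf2, which was lower (-0.27, adjusted p = 0.0725).

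Between euploid females and males 3 of 45 orthologs were called, beside 9.74% of all genes. Rrp1b was higher in females by 0.38 (SE 0.09, adjusted p = 0.0115), male euploid libraries running from 3.45 to 3.99. Mcm3ap (chr10:76468902-76515859), a scaffold of messenger RNA export, was higher by 0.20 (SE 0.06, adjusted p = 0.0422), from 5.93 to 6.18 in males and 5.80 to 6.45 in females. The lowest of the female values was B125, and the highest was B85, a library labelled female in which Xist and Ddx3y were at the male level. Without it the difference was 0.17 (adjusted p = 0.119), and the Mcm3ap gene overlaps Ybey, an endoribonuclease gene, so reads there may be shared. Agpat3, an acyltransferase of phospholipid synthesis on chr10:78269174-78352497, was lower in females by 0.11 on the log2 scale (-0.11, SE 0.04, adjusted p = 0.0581), from 7.74 to 7.97 in males and 7.58 to 7.84 in females, and its call was lost without any 1 of 5 libraries (male B110, B80 or B84, female B125 or B17, adjusted p 0.104 to 0.136).

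Of the 12 orthologs of chromosome 17, 10 had a log2 fold change below 0 in female Ts65Dn vs. euploid, with a median of -0.11. Of all 17146 genes tested, 9310 were below 0, with a median of -0.02. The medians of the chromosome 17 orthologs were 0.03 in males and -0.05 at E17.5. In females 1 of the 12 was called, beside 3.17% of all genes. In euploid females vs. euploid males 10 of the 12 were above 0, with a median of 0.11, beside 9008 of 17427 genes and a median of 0.01, and the female euploid group enters both of these contrasts. Chromosome 10 orthologs had medians of 0.05 at E17.5, 0.00 in males and 0.01 in females.

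Restoring Brwd1 to 2 functional copies was the remaining comparison of the design. In Ts65Dn;Brwd1+/- vs. Ts65Dn no ortholog was called in males or in females by edgeR, and 0% of all genes were, with none called by DESeq2. Orthologs at an unadjusted p under 0.05 were 3 in males (6.82%, beside 7.48% of all genes) and 2 in females (4.44%, beside 3.52%). The medians over the orthologs were 0.00 and 0.03. S100b differed by -0.01 in males and -0.04 in females, and Cbs by -0.09 and -0.24, the latter with an unadjusted p under 0.05 and not called. Male Adarb1 was at -0.13 (SE 0.05, adjusted p = 0.626), male Col6a1 at 1.03 (SE 0.38, adjusted p = 0.626) with libraries from 2.55 to 5.04 in Ts65Dn and 3.45 to 5.54 in Ts65Dn;Brwd1+/-, and male Pde9a at 0.26 (SE 0.12, adjusted p = 0.638). Female Itgb2 was at -0.21 (SE 0.09) and female Sik1, a salt-inducible kinase that restrains CREB co-activators, at 0.34 (SE 0.19), neither called.

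Against euploid, the restored animals had 1 of 44 orthologs called in males, beside 0.576% of all genes, and 1 of 45 in females, beside 0.729%, and in each sex it was Cbs. S100b was at 0.24 in males (SE 0.06, adjusted p = 0.127) and 0.27 in females (SE 0.08, adjusted p = 0.163), with libraries from 6.36 to 6.75 and from 6.33 to 6.83 log2 CPM. The female S100b value was called without B136 (0.31, adjusted p = 0.0419) or without euploid B125 (0.33, adjusted p = 0.00579). Next by p-value were Ncam2 in males (-0.19, SE 0.08, adjusted p = 0.391) and Rrp1b in females (-0.29, SE 0.10, adjusted p = 0.258). With both sexes combined 2 of 45 were called against euploid, beside 3.72% of all genes, namely Cbs and S100b (0.26, SE 0.05, adjusted p = 0.00153). Against Ts65Dn 0 were called by edgeR, beside 0% of all genes, and none by DESeq2. There 6 orthologs (13.3%) had an unadjusted p under 0.05, beside 5.11% of all genes. In that contrast S100b was at -0.02 (95% interval -0.12 to 0.09) and Cbs at -0.16 (-0.30 to -0.03, adjusted p = 0.917), and the smallest p, of Agpat3, came with a difference of -0.07 (adjusted p = 0.917). Comparisons of both trisomic genotypes with euploid share the euploid libraries.

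Of the 45 orthologs tested over both sexes, 38 had an absolute log2 fold change under 0.2 in Ts65Dn vs. euploid. Among abundant metabolic genes, Pfkl was at 0.10 (SE 0.05) and Ndufv3, a complex I subunit, at 0.03 (SE 0.06), and of 15 other glycolytic genes 0 were called by edgeR in this comparison and 4 had an unadjusted p under 0.05. Among genes of lipid handling, Abcg1 was at -0.00 (SE 0.03) and Lss, the lanosterol synthase of cholesterol synthesis, at -0.08 (SE 0.06), while of 21 other genes of that pathway Hmgcs1 (0.23, SE 0.05, adjusted p = 0.00342) and the regulator Srebf2 (0.12, SE 0.03, adjusted p = 0.0056) were called higher over both sexes. Among protein-modifying genes, Sumo3 was at -0.05 (SE 0.03), Ube2g2, a ubiquitin-conjugating enzyme, at 0.05 (SE 0.05) and Prmt2 at 0.09 (SE 0.05, adjusted p = 0.369), with Prmt2 at 0.12 in Ts65Dn;Brwd1+/- (SE 0.04, adjusted p = 0.158), and none of 15 other SUMO-pathway genes was called by edgeR in any comparison, with 0 to 3 at an unadjusted p under 0.05.

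Among structural and transport genes over both sexes, Pcnt was at -0.11 (SE 0.06), Trappc10, a vesicle-tethering subunit, at 0.04 (SE 0.03), Trpm2 at 0.01 (SE 0.04) and Slc19a1, the reduced folate carrier, at -0.02 (SE 0.08). Adarb1 was at 0.01 (SE 0.06), with 0 of 5 other editing and deaminase genes called by edgeR in the same comparison and 1 at an unadjusted p under 0.05. Rsph1, a radial spoke protein of motile cilia, was at -0.01 with an SE of 0.19, while Rsph3a, another spoke gene that lies in the triplicated part of chromosome 17, was at 0.78 (SE 0.09, adjusted p = 5.96e-08). For the sparse genes the precision was poor. Chodl was at -0.59 with an SE of 0.37 on between 0 and 50 counts per adult library. Hsf2bp was at -0.14 with an SE of 0.34. Col6a1 was not sparse but varied between libraries, from 1.90 to 20.1 RPKM in adult euploid animals (mean 5.54). It was at -0.27 with an SE of 0.27. Samsn1 was at -0.20 (SE 0.14), Col6a2 at -0.15 (SE 0.17) and Col18a1 at -0.02 (SE 0.28). Summed over 10 choroid plexus markers, adult libraries ran from 38.9 CPM (male Ts65Dn;Brwd1+/- B51) to 6562 CPM (female euploid B17). Col18a1 was at 2.58 log2 CPM in B51 and 4.42 in B17. The group medians of the sum were 1112 CPM in male euploid, 143 in male Ts65Dn, 2089 in female euploid and 614 in female Ts65Dn libraries. The part of choroid plexus in the Col18a1 value was not tested. Sik1 was at -0.23 (SE 0.14), and of 15 partners and targets of CREB signalling 1 was called by edgeR over both sexes, Crem, which was lower (-0.18, SE 0.05, adjusted p = 0.0293). In males alone 0 were called. In females alone 3 were called lower, the immediate early genes Fos (-0.94) and Fosb (-0.44) and the clock gene Per1 (-0.42).

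A further 12 orthologs lay between -0.07 and 0.09 over both sexes. Highest was Pofut2, an O-fucosyltransferase of the secretory pathway, at 0.09 (SE 0.04, adjusted p = 0.315), which was also at 0.15 at E17.5 (SE 0.07, adjusted p = 0.373), and lowest was Slc37a1, a sugar-phosphate transporter, at -0.07 (SE 0.07). Between them were the nuclear receptor corepressor Nrip1 (0.03, SE 0.13), the homeodomain factor Pknox1 (0.04, SE 0.06), the Hsp70-like protein Hspa13 (0.04, SE 0.04), the protease inhibitor cystatin B, Cstb (-0.02, SE 0.06), the antiproliferative gene Btg3 (0.01, SE 0.06), Dip2a (0.01, SE 0.05), Pttg1ip (-0.02, SE 0.03), Ybey (0.01, SE 0.06), Icosl (0.06, SE 0.08) and Cxadr (-0.05, SE 0.07). None of these 12 was called by edgeR in any comparison, which follows from the grouping, since every called ortholog is described above. Of the orthologs described above for 1 sex or for E17.5, Itgb2 was at 0.20 (SE 0.07, adjusted p = 0.115) over both sexes, Rrp1b at -0.14 (SE 0.07), Agpat3 at 0.08 (SE 0.03, adjusted p = 0.128), Usp25 at 0.07 (SE 0.04), Pde9a at -0.06 (SE 0.09), Mcm3ap at -0.05 (SE 0.04), Ncam2 and Wdr4 each at 0.03 (SE 0.13 and 0.03), Pwp2 at -0.02 (SE 0.04) and U2af1 at -0.01 (SE 0.04). None of these was called over both sexes.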

How the data were processed

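Poly(A) RNA libraries (TruSeq, not strand-marking) were sequenced as single reads, 2 flow cells per library. The study aligned reads to mm10 with HISAT2, counted them per gene with featureCounts and tested them with DESeq2 after RUVr. The submitters' notes name HISAT2 2.1.0, featureCounts 2.0.1 and mm9 as a second build. The deposited values are raw counts of the authors for 27179 Entrez genes, of which 25275 matched RefSeq.

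Counts were tested with edgeR 4.0.16 (R 4.3.3, limma 3.58.1): TMM scaling, filterByExpr with a minimum count of 10, robust quasi-likelihood F tests and Benjamini-Hochberg adjustment over all genes tested, called under 0.1. E17.5, male and female libraries were fitted separately, with all 6 adult groups fitted together for the sexes and the interaction. Pooling the sexes and leaving out doubted libraries were chosen after seeing the data. Log2 CPM used a prior count of 0.5, and RPKM the merged exon length of GENCODE basic transcripts joined by Entrez identifier. Both used library totals adjusted by TMM within each count table. Totals of 14863136 to 137059172 counts per library limit precision mainly for genes with few counts. Replicates were separate animals, so p-values measure the spread between them, and no libraries of a group differed by as little as sampling noise (lowest chi-square per degree of freedom 9.05 over 210 pairs). Alternatives were DESeq2 1.42.0, upper-quartile scaling, 1 to 3 RUVr factors (the number used by the study is not given in the sources used here), other filters, other sample sets, covariates and each library left out. The fits were tested on simulated data.

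The rule for the orthologs uses position alone, but it and the pathway and marker lists were chosen with earlier results of these data known. Orthologs with an adjusted p under 0.1 in any comparison, or the 3 smallest p-values where fewer were called, are given with values per group, and the others by levels and ranges. Partners were named where called, and Mrpl39, Jam2 and App as triplicated genes near the border, with Atp5j and Gabpa between them.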

Additional observations from a re-analysis of the deposited data

Results flagged for a closer look

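In 136 groups of 17 orthologs, 16 had a highest or lowest library whose gap to its neighbour was large for the range of the group by Dixon's criterion (11.8%, where chance gives about 1 in 20). All values are log2 CPM. The 2 female libraries that stood apart over all genes account for 8 of the 16. Euploid B125 was lowest for Adarb1 (7.30, next 7.80) and Ncam2 (3.53, next 5.23) and highest for Prmt2 (6.73, next 6.45). Ts65Dn;Brwd1+/- B176 was lowest for Adarb1 (7.27, next 7.69), Ncam2 (3.46, next 5.19) and Usp25 (5.32, next 5.63) and highest for Prmt2 (6.86, next 6.59) and U2af1 (4.26, next 3.91).

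Another 3 came from libraries that went against their labels. S100b in male Ts65Dn;Brwd1+/- T35 was 6.36 with the next value at 6.57, and Col6a1 in female Ts65Dn;Brwd1+/- B136 was 5.86 with the next at 4.70, both in libraries with triplicated genes at the euploid level. Itgb2 in male Ts65Dn B88, where Xist and Ddx3y were at the female level, was 2.99 with the next at 2.55.

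The other 5 were in libraries with no such mark. Ncam2 was 4.90 in female Ts65Dn T141 (next 5.44), and Usp25 was 5.51 in male euploid B79 (next 5.65). At E17.5 Adarb1 was 5.55 in EU4 (next 5.91), Sik1 5.95 in EU1 (next 5.78) and Wdr4 5.49 in EU8 (next 5.69).

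U2af1 lay on opposite sides of euploid in the sexes: all 7 male Ts65Dn libraries lay above the male euploid mean and all 8 female Ts65Dn libraries below the female euploid mean. Against the medians 6 of 7 male libraries were above and 6 of 8 female libraries below, and without euploid B125 6 of 8 were below the female euploid mean. The difference between the effects was -0.27 (log2, SE 0.09, adjusted p = 0.267 in edgeR over all genes), so it did not pass the correction.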

How the results depend on the processing

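The counts of orthologs called rested on settings, while their median log2 fold change stayed between -0.03 and 0.05 under every alternative run. At E17.5, where 1 was called, DESeq2 called 3 (beside 3.58% of all genes), and 1, 2 and 3 RUVr factors 6, 10 and 13 (9.12%, 16% and 21.6%). The embryos' shared replicate numbers did not pair the animals (correlations of same-numbered libraries -0.13 to 0.23), and with the replicate block 0 orthologs and 128 genes (0.733%) were called, Pwp2 being at -0.26 (adjusted p = 0.129). In male Ts65Dn vs. euploid (0 called) DESeq2 called 2 (1.48%), RUVr 2, 2 and 5 (1.79%, 2.82% and 4.5%), the fit without the 4 libraries at euploid dosage 3 (1.16%) and without all 8 doubted libraries 2 (1.54%). In male Ts65Dn;Brwd1+/- vs. euploid (1) the counts were 2 by DESeq2 (1.73%), 2, 2 and 3 by RUVr (1.82%, 3.02% and 4.82%), and 2 each with only the groups compared (0.973%), without the 4 (1.58%), without the 2 of contrary sex (0.712%) and without the 8 (1.83%). In female Ts65Dn vs. euploid (2) they were 5 by DESeq2 (6.12%), 9, 10 and 12 by RUVr (13.5%, 19.6% and 23.1%), 1 with only the groups compared (2%), 5 with all 6 groups (6.95%), 1 without those of contrary sex (1.98%), 9 without the 2 standing apart (17.4%) and 7 without the 8 (11.2%). In female Ts65Dn;Brwd1+/- vs. euploid (1) they were 2 by DESeq2 (1.77%), 5, 6 and 9 by RUVr (8.85%, 14.6% and 18.2%), 2 with all 6 groups (1.89%), 2 without the 4 (1.2%), 4 without those standing apart (4.44%) and 3 without the 8 (3.3%). For the interaction (0) RUVr gave 3, 7 and 8 (2.77%, 9.32% and 12.9%), and leaving out those standing apart 2 (1.4%), Rrp1b at -0.44 and Mcm3ap at -0.28. Between the sexes (3) RUVr gave 10, 12 and 12 (18.9%, 23.8% and 26.7%), a minimum of 10 counts in every library 5 (11.7%), only the groups compared 1 (3.71%), without those standing apart 7 (18.6%) and without the 8 6 (14.1%). Over both sexes, Ts65Dn vs. euploid (3) gave 7, 10 and 11 with RUVr (7.16%, 11.4% and 14.5%), 7 without those standing apart (8.2%) and 5 without the 8 (7.82%), and Ts65Dn;Brwd1+/- vs. euploid (2) gave 7, 9 and 10 (13%, 18% and 21.4%), 4 (10.1%) and 6 (12.1%). Against Ts65Dn (0), 2 and 3 RUVr factors gave 1 and 4 in males (2.47% and 3.42%), 1 and 1 in females (1.09% and 2.33%) and 3 and 4 over both sexes (4.56% and 6.77%). The percentages are of all genes tested, and RUVr factors are estimated from the residuals of the fit itself.

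Leaving out each library in turn gave 0 to 4 orthologs called at E17.5 (0.744% to 2.76% of all genes), 0 to 3 in male Ts65Dn vs. euploid (0.495% to 1.33%), 0 to 2 in male Ts65Dn;Brwd1+/- vs. euploid (0.19% to 1.06%), 1 to 6 in female Ts65Dn vs. euploid (1.66% to 9.32%, with 6 and 9.32% without B125), 1 to 4 in female Ts65Dn;Brwd1+/- vs. euploid (0.476% to 8%, with 4 and 8% without B125), 2 to 6 between the sexes (5.12% to 14.2%), 2 to 5 for Ts65Dn vs. euploid over both sexes (2.69% to 5.38%, with 5 and 5.38% without B125), and 0 to 0 in each comparison of Ts65Dn;Brwd1+/- with Ts65Dn and in the interaction. No described ortholog changed direction past the threshold under any alternative. Depth limits Chodl, Hsf2bp and Ftcd, and the fits of both sexes for Ts65Dn;Brwd1+/- were not run with single libraries left out.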
